A study of Capra hircus with 6 samples.

Results

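The intronic circular RNAs (circRNAs) of goat muscle are described here: every entry that the deposited expression table classes as an intronic circular RNA. Such a molecule is a circle whose sequence comes from an intron rather than from joined exons. The class held 2596 of the 25500 circRNAs listed. On each sequence and strand, entries with the same end coordinate and starts 1 base apart were added together, which left 2542 intronic circRNAs of 23983 circRNAs in all. They came from 1730 of the 6418 host genes of intronic or exonic circRNAs, and 1101 of those 1730 genes (63.6%) also gave rise to an exonic circRNA.

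The samples were longissimus dorsi, the long back muscle, of Haimen goats, with 3 libraries from fetuses at day 75 of pregnancy and 3 from kids of 1 day of age. All libraries were made from RNA depleted of ribosomal RNA and digested with RNase R, an enzyme that degrades linear RNA and spares circles. No genetic change or treatment is given for either group. The labels do not say that each library came from a different animal, so the p-values below measure the spread between these libraries, and age is confounded with everything else that differs between a fetus and a newborn.

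When an intron is removed by splicing, its 5′ end is joined to the branch point, giving a lariat that the debranching enzyme normally opens for decay. Some introns escape debranching, lose the tail beyond the branch point and persist as circles that run from the 5′ splice site to the branch point. Circles of this kind have a fixed 5′ end and a 3′ end short of the 3′ splice site, they stay mostly in the nucleus in human cells, and some were found there to act on transcription of their own host gene. Exonic circles arise differently, by back-splicing of a splice donor to an acceptor that lies before it in the gene.

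Each circRNA was counted by its back-splice reads, the reads that cross the circle's junction, so the counts do not grow with the length of the circle. The libraries held 33222 to 77111 back-splice reads among 34123876 to 52035202 valid reads. Fetus 1 and fetus 2 kept 70.7% and 69.1% of their raw reads once trimmed, against 84.0% to 87.9% in the rest. Among the hosts, the giant sarcomere proteins titin (TTN) and nebulin (NEB) had the most intronic circRNAs, and of 13 skeletal muscle markers ACTA1, MYH1, MYH2 and MYH3 were the ones with no intronic read. The 77 marker genes of erythroid, endothelial, immune, fat, smooth muscle, nerve and cartilage cells held 26 intronic reads in all, from 7 of the 77 genes, with a summed level of 25.5 to 115 CPM (counts per 1000000 back-splice reads) in the fetus libraries and 14.5 to 154 in the kid libraries. ANK1, counted here as erythroid, held 13 of the 26 reads and also stands in the list of dystrophin complex and membrane genes used below. The immune, fat and cartilage lists had no intronic read. Exonic circRNAs of 23 of these marker genes summed to 521 to 586 CPM in the fetus libraries and 309 to 448 in the kid libraries, without overlap, and the part of this in the results below was not tested.

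The class held 2 kinds of record. In the first, which will be called intron-numbered, the table names the host by its symbol and gives the number of the intron. There were 1594 such entries, or 1540 circRNAs after adding, in 1077 host genes. In the second, called interval-named, the table gives the host as a gene number and repeats the circle's own interval in place of an intron number. There were 1002 of these in 710 host genes, and 57 genes hosted both kinds. The kinds differed in their smallest counts as well. Of the values above 0 of intron-numbered entries 61.7% were a single read, whereas the smallest value above 0 of an interval-named entry was 2 reads. A value listed at 0 for an interval-named circRNA may therefore stand for 1 read, and no fold change is given for one whose fetus or kid libraries are all listed at 0. The split is not particular to the intronic class, and the exonic circRNAs used for comparison below include both sides of it. Single reads were 1.35% of values above 0 for the 3561 exonic entries hosted by a gene number, and 40.4% for the other 18724. No intergenic entry had a value of 1 read. Whether the 2 intronic kinds come from different calling rules was not tested, so their differences in length, ends and smallest count cannot be told apart from such rules.

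Intron-numbered circRNAs were short. Their median length was 304 bases, their quartiles were 199 and 579 bases, and 88.7% were under 1000 bases. Interval-named circRNAs had a median of 8409 bases, and 46.0% were over 10000 bases.

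**Figure D1:**
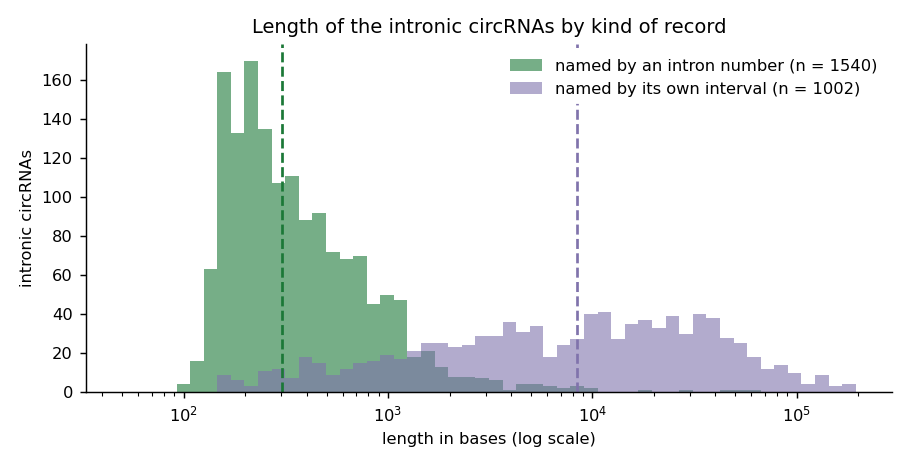
Number of intronic circRNAs by length in bases on a log axis, for the 1540 named by an intron number and the 1002 named by their own interval, with dashed lines at the medians of 304 and 8409 bases. The 2 distributions overlap over much of their range, and 5 circRNAs with an intron number are longer than 10000 bases.

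Among the intron-numbered circRNAs, 5′ ends were shared far more often than 3′ ends. No exonic circRNA lay within any of the 1540, and none shared an end with one. For 84 of them (5.45%) the 5′ end was the base directly after the last base of an exonic circRNA, that is, directly after a splice donor in use; only 4 (0.260%) had a 3′ end directly before the first base of one. Another intron-numbered circRNA had the same 5′ end for 365 of the 1540 (23.7%) and the same 3′ end for 4 (0.260%).

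Interval-named circRNAs had other ends. Of the 1002, 428 (42.7%) enclosed at least 1 whole exonic circRNA of the same strand and 511 (51.0%) had 1 end in common with an exonic circRNA, but none had both. Counting either feature gave 536 (53.5%), with a median length of 14740 bases, and these carried 52.2% of the reads of the kind. A 5′ end in common with another of the kind was found for 148 and such a 3′ end for 170. For these 536 the data go against the class name, because a circle that encloses exons or ends at an exon boundary is not made of 1 intron alone. The other 466 had a median length of 3460 bases, and the coordinates do not tell whether they lie within an intron. Results below are therefore given by kind where counts allow.

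**Figure D2:**
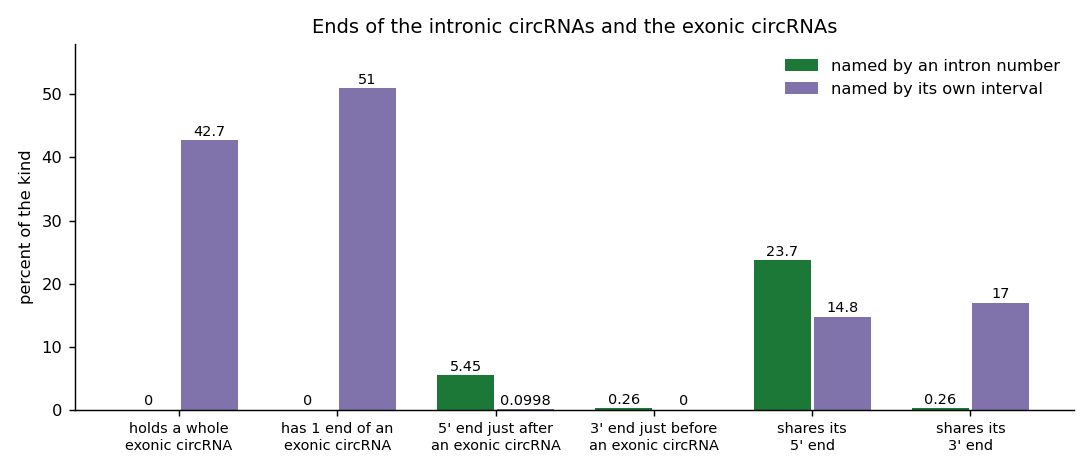
Percent of the 1540 intron-numbered and the 1002 interval-named circRNAs with each property of their ends: enclosing an exonic circRNA, sharing 1 end with one, a 5′ end directly after or a 3′ end directly before one, and sharing the 5′ or the 3′ end with another member of the kind. The intron-numbered kind is at 0 for the first 2 properties and at 23.7% for shared 5′ ends against 0.260% for shared 3′ ends, whereas 51.0% of the interval-named kind have 1 end of an exonic circRNA.

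A minority of the 1320 introns with intron-numbered circRNAs gave circles with the same 5′ end and several 3′ ends. Before entries were added together, 174 introns had at least 2 such 3′ ends, 58 had at least 3, and intron 4 of PDLIM7, whose product ties kinases and actin filaments at the Z-disc through PDZ and LIM domains, had 7. Of the 272 minor ends, 172 (63.2%) lay within 5 bases of the most used end of their intron and 88 were 1 base away, while 18 were more than 50 bases away. They fell on both sides, 138 downstream and 134 upstream. In the 35 introns with at least 20 reads, the most used end held a median of 75.0% of the reads, from 34.8% to 97.8%. All 40 groups of entries that were added together lay on the minus strand, where the start coordinate is the 3′ end of the circle. On the plus strand a 3′ end that varies changes the end coordinate, so such neighbours stayed separate there, as for AUP1 below.

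HCFC1R1, which encodes a regulator of the transcriptional coregulator HCF-1, had the most used intron of all. Its intron 3 circle of 212 bases lay on chromosome 25 from 2320770 to 2320981 on the minus strand, in the coordinates of the deposited tables. The sources used here do not give their genome build. The most used 3′ end had 4934 reads, the end 1 base upstream 76, and the ends 1, 2, 3 and 8 bases downstream 229, 138, 57 and 1. Of the reads at all of these ends, the most used end held 96.8%, 93.7% and 95.3% in the fetus libraries and 91.0%, 90.0% and 89.9% in the kid libraries. The means were 95.3% ± 1.57 and 90.3% ± 0.639 (SD, n = 3 each), and the stages did not overlap, with an exact permutation p of 0.1, two-sided, the smallest that 3 against 3 libraries can give.

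Other introns spread their reads more evenly. Intron 7 of KIF20A, a mitotic kinesin, had 47 reads at its most used end, 29 reads 1 base upstream and 15 reads 2 bases upstream. In intron 4 of PDLIM7, 79 of 107 reads were at the most used end and 20 were 2 bases downstream. PER1, a core repressor of the circadian clock, had 312 reads at 1 end of intron 12 and 45 at the next base. Intron 8 of PLEKHH3, a gene of a pleckstrin homology domain protein, gave circles with 2 different 5′ ends, at 42376636 and 42376645 on the minus strand of chromosome 19, and both reached the same 3′ end at 42376387. The shorter circle of 250 bases had 96 reads at that 3′ end and the one of 259 bases had 53.

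**Figure D3:**
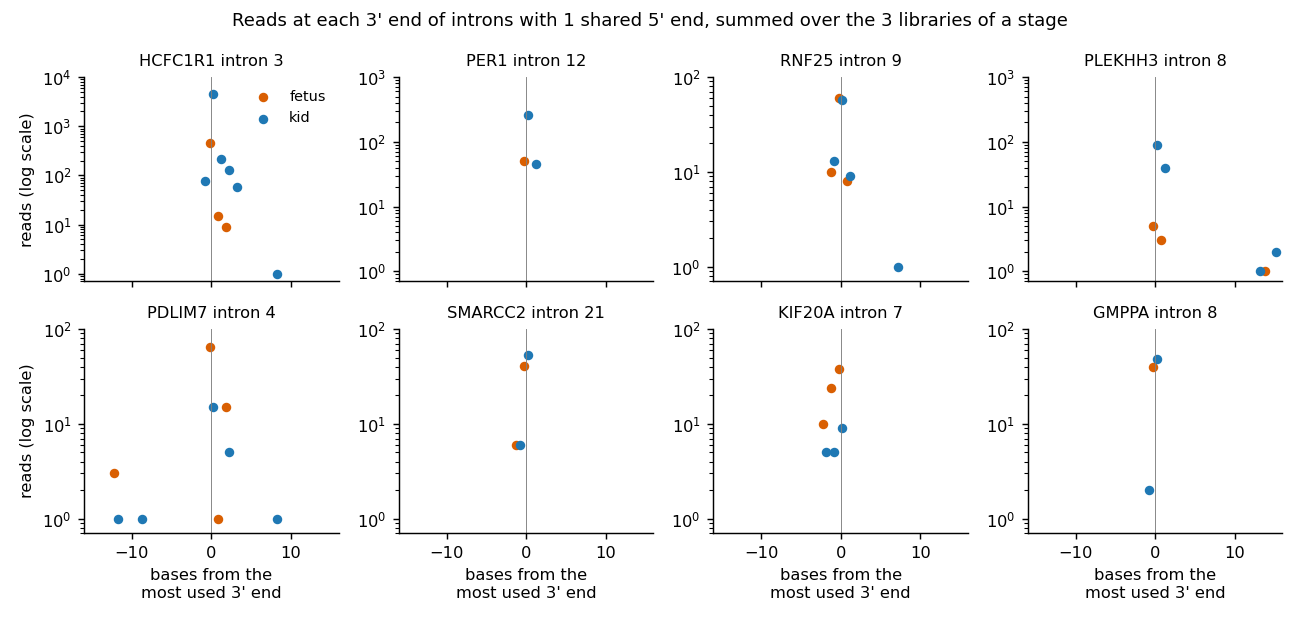
Reads (log axis) at each 3′ end, summed over the 3 libraries of a stage, by distance in bases from the most used end, for the 8 introns with the most reads among those with at least 2 ends; positive distances are downstream, and ends more than 16 bases away are not drawn. Most minor ends stand within 3 bases of the most used end in both stages.

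Intronic circRNAs took a larger share of the back-splice reads in each kid library than in any fetus library. The share was 4.43%, 5.15% and 5.50% in the fetus libraries and 8.60%, 8.62% and 9.22% in the kid libraries, with means of 5.03% ± 0.548 and 8.81% ± 0.354 (SD, n = 3 each). The exact permutation test, two-sided, gave p = 0.1, its smallest value at this size. It is 1 of 4 such tests made here, each with a Benjamini-Hochberg adjusted p of 0.1 (n = 3 against 3, exact permutation). The part of read trimming, which left fewer reads in fetus 1 and fetus 2, was not tested. In bulk muscle, a larger share from more cells that make a circle and from more circles per cell cannot be told apart.

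The circle of HCFC1R1 made up much of this difference. It held 23.1% of all intronic reads and 50.9% of those of the intron-numbered kind. Without it the share was 4.67% ± 0.454 in the fetus and 6.41% ± 0.362 in the kid, still with no overlap. Intron-numbered circRNAs went from 1.70% ± 0.346 to 4.39% ± 0.151, and without HCFC1R1 from 1.32% ± 0.254 to 1.87% ± 0.0492. For interval-named circRNAs the shares were 3.33% ± 0.209 and 4.42% ± 0.313.

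**Figure D4:**
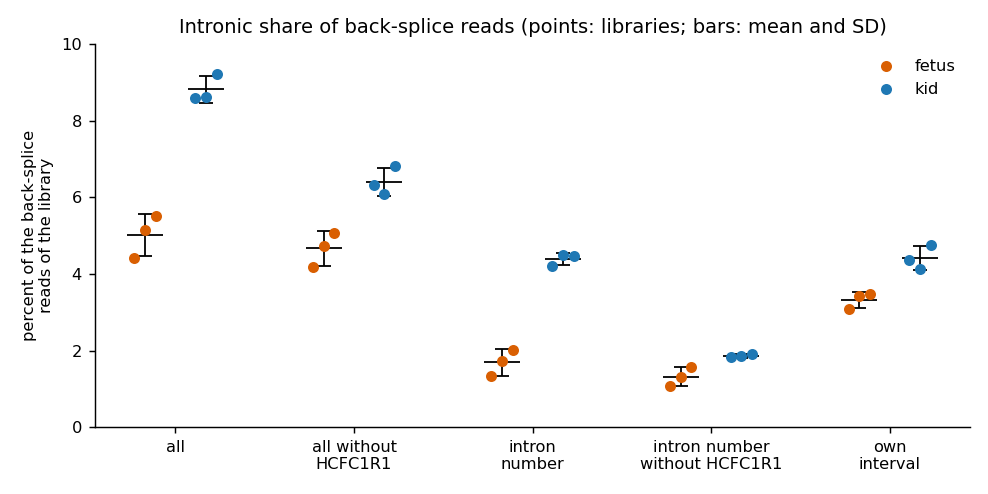
Percent of the back-splice reads of each library that fell on intronic circRNAs, for all of them, without the circle of HCFC1R1, for those named by an intron number with and without HCFC1R1, and for those named by their own interval; points are the 3 libraries of a stage and bars the mean and SD. The kid libraries lie above the fetus libraries in every column, and the gap of the intron-numbered kind shrinks from 1.70% against 4.39% to 1.32% against 1.87% without HCFC1R1.

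Detection was sparse. A single read supported 977 of the 2542 intronic circRNAs, all intron-numbered. Only 25 of the 1540 intron-numbered (1.62%) and 41 of the 1002 interval-named circRNAs (4.09%) had a read in all 6 libraries. Reads were found in both stages for 441, in the fetus alone for 720 and in the kid alone for 1381, which at these depths does not show that a circle is absent from the other stage. After thinning every library to 33222 back-splice reads, intronic circRNAs made up 5.59%, 5.99% and 7.71% of the circRNAs detected in the fetus libraries and 9.45%, 9.02% and 9.27% of those in the kid libraries. The means were 6.43% ± 1.12 and 9.25% ± 0.216, with an exact permutation p of 0.1 (n = 3 each). Thinning did not put the libraries on equal terms. Interval-named entries have no single reads before it and can have them after it, except in fetus 2, the smallest library. This kind made up 2.97%, 3.14% and 4.13% in the fetus and 5.45%, 4.38% and 5.06% in the kid. Intron-numbered circRNAs made up 3.02% ± 0.499 and 4.29% ± 0.323. The part of this limit in the difference was not tested. The length at which a read was equally likely to come from a shorter or a longer intronic circRNA was 1757 ± 220 bases in the fetus and 337 ± 60.0 bases in the kid, again without overlap and with an exact permutation p of 0.1 (n = 3 each). Without the circle of HCFC1R1 the lengths were 1953 ± 76.8 and 1522 ± 436 bases (exact permutation p = 0.3, n = 3 each), and within the intron-numbered kind the value was 212 bases in all 6 libraries, the length of the HCFC1R1 circle.

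Stage differences of single circRNAs were tested with edgeR's quasi-likelihood test on every circRNA that reached 5 reads in 3 or more libraries, with Benjamini-Hochberg adjustment over all of them and a call at an adjusted p under 0.05. Of the 2542 intronic circRNAs 120 passed this filter, 29 of the intron-numbered and 91 of the interval-named kind, so the counts that follow describe the 120 and not the class. Called were 24 of the 120, 19 higher and 5 lower in the kid. Among all 1960 circRNAs tested 15.2% were called, 9.23% higher and 5.92% lower; among the 1790 exonic ones 14.2% were. Of the 29 intron-numbered circRNAs 6 were called (4 higher, 2 lower), and of the 91 interval-named ones 18 (15 higher, 3 lower). The stages did not overlap for 55 of the 120, against 37.2% of all circRNAs tested. The median log2 fold change, kid over fetus, was 0.58 over the 120 and 0.07 over all 1960. Without TMM scaling the median of all moved to -0.16 and the calls among all circRNAs from 181 higher and 116 lower to 146 higher and 181 lower, while the intronic calls were 19 higher and 7 lower. Only 10 of the 24 called circRNAs still passed the filter when any 1 of the 6 libraries was left out. The others passed it only through the 3 libraries of the stage where they were higher. Among them 8 were listed at 0 in every fetus library. They were thus chosen by that stage, so their p-values are no separate support for a difference. Fits without 1 of those 3 libraries could not be made for them. Levels are given below in CPM after TMM scaling, and changes as log2 fold changes of the kid over the fetus with their standard errors (SE).

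Among the intron-numbered circRNAs, HCFC1R1 stood far above the rest. It had 95, 143 and 253 reads in the fetus libraries and 1876, 1149 and 1918 in the kid libraries, 3500 ± 942 and 27883 ± 1586 CPM (SD, n = 3 each). The log2 fold change was 2.99 ± 0.20 (SE; edgeR's quasi-likelihood test, adjusted p = 4.88e-06), and every fit that left out 1 library kept the call. No exonic circRNA of HCFC1R1 had a read.

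The circle of PER1 intron 12 was the intron-numbered circRNA with the next highest level. It spans 182 bases on chromosome 19, from 27519694 to 27519875 on the minus strand. It had 12, 24 and 15 reads in the fetus libraries and 91, 87 and 128 in the kid libraries, so that all kid libraries lay above all fetus libraries. The levels were 403 ± 222 and 1789 ± 482 CPM, and the log2 fold change was 2.18 ± 0.36 (adjusted p = 0.00208, edgeR's quasi-likelihood test). PER1 had a single exonic back-splice read, in kid 1.

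Both circles of PLEKHH3 intron 8 rose as well. The one of 250 bases had 1, 1 and 6 reads in the fetus and 44, 16 and 70 in the kid, a log2 fold change of 3.55 ± 0.56 (adjusted p = 0.00156, edgeR's quasi-likelihood test), which was 4.56 without fetus 3. The one of 259 bases had 0, 0 and 1 read in the fetus and 20, 5 and 37 in the kid (adjusted p = 0.00378, edgeR's quasi-likelihood test). From that single fetal read its CPM ratio was 47.2, with an exact 95% interval from 8.17 to 1896 that covers counting error only. For both circles every fetus library lay below every kid library.

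The other 2 calls of the intron-numbered kind were lower in the kid. Intron 4 of PDLIM7 gave a circle of 460 bases with 12, 16 and 36 reads in the fetus libraries and 11, 1 and 3 in the kid libraries, 445 ± 143 and 74.6 ± 69.9 CPM. Kid 1 had the most of the kid libraries and still lay below the fetus libraries in CPM. Its log2 fold change of -2.45 ± 0.56 (adjusted p = 0.0119, edgeR's quasi-likelihood test) was -3.53 without kid 1, and the call was lost without fetus 3 (adjusted p = 0.0504). The circle of KIF20A intron 7, 157 bases long, had 14, 24 and 34 reads in the fetus and 13, 6 and 0 in the kid. At -2.26 ± 0.68 (adjusted p = 0.0415, edgeR's quasi-likelihood test) it was the weakest of the 6: it lost the call without any one of the fetus libraries or without kid 2, with adjusted p up to 0.136, and leaving out kid 1 or kid 3 gave -3.08 or -1.57. Its 5′ end is 1 of the 84 that directly follow an exonic circRNA, and that exonic circRNA's host, again KIF20A, had 2 exonic reads, both in the fetus.

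Of the 18 interval-named circRNAs that were called, 7 enclosed an exonic circRNA or ended at one, and 11 did neither. Among the 11 were several as short as the intron-numbered kind. SEMA3F, which encodes a secreted semaphorin that guides axons and vessels, had a circle of 372 bases on chromosome 22 from 50251463 to 50251834 on the minus strand. It had 25, 23 and 20 reads in the fetus libraries and 191, 128 and 376 in the kid libraries, 532 ± 176 and 3804 ± 1446 CPM, and rose by a log2 fold change of 2.87 ± 0.33 (adjusted p = 1.47e-04, edgeR's quasi-likelihood test). Another pair of circles of SEMA3F had the same 5′ end and were 382 and 384 bases long. They were not called: the one of 382 bases had 0, 3 and 2 reads in the fetus and 7, 6 and 7 in the kid, and the one of 384 bases 5, 12 and 4 in the fetus and 0, 24 and 48 in the kid. The 3 share 1 5′ end, with 3′ ends 12 bases apart or less.

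GPN1, a small GTPase needed for nuclear import of RNA polymerase II, had a circle of 268 bases on chromosome 11 from 71788434 to 71788701 on the minus strand. Its reads were 31, 27 and 44 in the fetus and 182, 120 and 138 in the kid, 751 ± 34.7 and 2546 ± 545 CPM. The fetus libraries were close to each other and far below the kid libraries, and the log2 fold change was 1.75 ± 0.23 (adjusted p = 4.50e-04, edgeR's quasi-likelihood test).

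PPP1R12B encodes a myosin phosphatase regulatory subunit of striated muscle. Its circle of 569 bases on chromosome 16, from 78739186 to 78739754 on the minus strand, was listed at 0 in the fetus and had 45, 35 and 54 reads in the kid, 771 ± 134 CPM (adjusted p = 1.04e-04, edgeR's quasi-likelihood test). ZNRF1, an E3 ubiquitin ligase, had a circle of 1049 bases that was also listed at 0 in the fetus and had 24, 40 and 43 reads in the kid (adjusted p = 8.52e-04, edgeR's quasi-likelihood test). KCNQ5, a voltage-gated potassium channel, had 0, 3 and 0 reads in the fetus and 69, 7 and 35 in the kid for a circle of 371 bases (adjusted p = 0.00659, edgeR's quasi-likelihood test). Its kid libraries ranged widely. All 3 fetal reads were in fetus 2, and the call held without that library.

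The gene LOC108637754 hosted 11 intronic circRNAs, all interval-named, all listed at 0 in every fetus library and none beside an exonic circRNA with reads. The one tested, of 1683 bases, had 11, 6 and 23 reads in the kid (adjusted p = 0.00659, edgeR's quasi-likelihood test). Many of the 11 share a start or an end, so they are not independent of each other. Their summed reads were 62, 12 and 63 in the kid libraries. As a gene, their sum was called with an adjusted p of 3.92e-05 (edgeR's quasi-likelihood test on host sums).

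Others of the 11 were ZNF644, SETD7, CREB5 and YAF2. ZNF644, a zinc finger protein gene, and SETD7, which encodes a lysine methyltransferase, were listed at 0 in the fetus, with 7, 9 and 11 and with 8, 5 and 12 reads in the kid (adjusted p = 0.0172 and 0.0207 in edgeR's quasi-likelihood test). The call of SETD7 was lost without fetus 1 (adjusted p = 0.0531). CREB5, a transcription factor of the CREB family, fell from 22, 17 and 24 reads to 12, 6 and 8, a log2 fold change of -1.68 ± 0.39 (adjusted p = 0.0129, edgeR's quasi-likelihood test), and lost the call without fetus 1 (adjusted p = 0.0511). YAF2, a partner of Polycomb repressor proteins, fell from 17, 6 and 10 reads to 3, 3 and 3 (-2.23 ± 0.63, adjusted p = 0.0319, edgeR's quasi-likelihood test) and lost the call without kid 1 or kid 3, with adjusted p up to 0.0961.

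The 7 called circRNAs that enclosed an exonic circRNA or ended at one all rose. JMJD1C, a gene of the jumonji histone demethylase family, had a span of 27387 bases with 10, 24 and 47 reads in the fetus and 136, 50 and 90 in the kid, a log2 fold change of 1.39 ± 0.35 (adjusted p = 0.0176, edgeR's quasi-likelihood test). The call was lost without fetus 1, fetus 2 or kid 1. CDC14A, a dual-specificity phosphatase, had a span of 62970 bases that enclosed 4 exonic circRNAs, with 11, 9 and 0 reads in the fetus and 59, 39 and 49 in the kid. Its log2 fold change of 2.39 ± 0.65 (adjusted p = 0.0281, edgeR's quasi-likelihood test) was 1.62 without fetus 3, the library listed at 0, and the call was lost without fetus 1, fetus 2, kid 1 or kid 2 (adjusted p up to 0.0716). The exonic circRNAs of CDC14A, summed, rose as well, by a log2 fold change of 1.14 ± 0.27 (adjusted p = 0.00825, edgeR's quasi-likelihood test on host sums).

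ADARB1, which encodes the RNA-editing enzyme ADAR2, had 0, 3 and 4 reads in the fetus and 24, 14 and 27 in the kid (2.78 ± 0.60, adjusted p = 0.00927, edgeR's quasi-likelihood test). NMD3, the export adaptor of the large ribosomal subunit, had 0, 0 and 4 reads and 25, 13 and 21 (adjusted p = 0.00776, edgeR's quasi-likelihood test), with all 4 fetal reads in fetus 3. RAP1B, a small GTPase, UBAP2 and MTFR1, a regulator of mitochondrial fission, were listed at 0 in the fetus. Their reads in the kid libraries were 5, 7 and 24 for RAP1B, 12, 9 and 5 for UBAP2, and 5, 5 and 9 for MTFR1, with adjusted p of 0.0144, 0.0225 and 0.0420 (edgeR's quasi-likelihood test). Leaving out any 1 fetus library ended the calls of UBAP2 and MTFR1, with adjusted p up to 0.106. A second span of RAP1B with the same 3′ end, 4802 bases long, had 0, 10 and 11 reads in the fetus and 0, 0 and 5 in the kid and was not called (adjusted p = 0.222, edgeR's quasi-likelihood test).

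**Figure D5:**
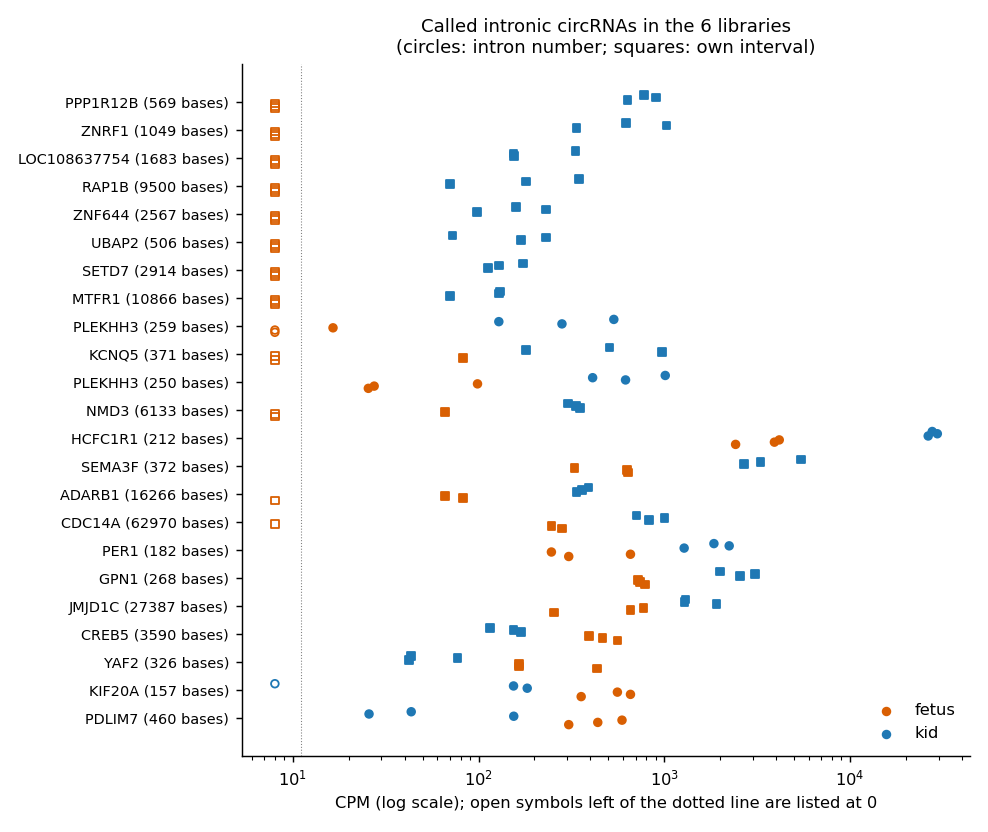
CPM (log axis) in each of the 6 libraries for 23 of the 24 called intronic circRNAs, ordered by log2 fold change, with fetus and kid libraries in different colours; circles are intron-numbered and squares interval-named, and open symbols left of the dotted line are values listed at 0. The stages are separate for all 23 drawn, 19 of them higher in the kid, and HCFC1R1 has the highest kid values.

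Among the 12 intronic circRNAs with the highest mean level, 2 were intron-numbered and 10 interval-named, and 6 of the 12 were called. The other 6 were LEMD3, RCL1, CUL1, TMTC2, MARK3 and PPP2R5A. LEMD3, an inner nuclear membrane protein, had 61, 45 and 90 reads in the fetus and 134, 65 and 137 in the kid (log2 fold change 0.38 ± 0.20, adjusted p = 0.237). RCL1, which takes part in ribosomal RNA processing, had 55, 39 and 82 and then 133, 67 and 149 (0.59 ± 0.21, adjusted p = 0.0788). CUL1, the scaffold of the SCF ubiquitin ligases, had 46, 68 and 111 reads and then 137, 47 and 103 (-0.07 ± 0.25, adjusted p = 0.911). The levels were 1423 ± 168 and 1845 ± 158 CPM for LEMD3, 1273 ± 179 and 1916 ± 220 for RCL1 and 1620 ± 388 and 1541 ± 362 for CUL1, all above every intron-numbered circRNA but HCFC1R1 in the fetus. TMTC2, an endoplasmic reticulum protein, had a log2 fold change of -0.20 ± 0.30, MARK3, a polarity kinase, 0.83 ± 0.34 and PPP2R5A, a regulatory subunit of protein phosphatase 2A, 0.55 ± 0.30, with adjusted p of 0.725, 0.122 and 0.247 (edgeR's quasi-likelihood test for all 6). Of these 6, LEMD3, RCL1, MARK3 and PPP2R5A enclosed an exonic circRNA.

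Reads summed over the intronic circRNAs of a gene gave 123 host genes past the same filter of the 1730. A sum near 0 in 1 stage again passed it only through the 3 libraries of the other. Among the sums called, those of ATP2A1, AUP1, MRPS25, PPP1R12B, LOC108637754, ZNRF1 and KCNQ5 passed it only through the kid libraries. The same held for NMD3, ADARB1, UBAP2, ZNF644, SETD7 and MTFR1. These sums were thus chosen by that stage, and their p-values are no separate support for a difference. Called were 29, 23 higher and 6 lower in the kid, against 19% of all host sums tested (11% higher and 8.06% lower). Of the 29, 21 also had a called circRNA. The other 8, named after their values had been seen, were AUP1, MARK3, ATP2A1, MICU3, MRPS25 and TRABD, which were higher in the kid, and ATXN10 and RIMS1, which were lower. ATP2A1 encodes SERCA1, the calcium pump of fast muscle fibres. It had 3 intron-numbered circRNAs, no read in the fetus and 5, 7 and 8 reads in the kid (adjusted p = 0.0288, edgeR's quasi-likelihood test). The call was lost without any 1 fetus library.

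AUP1, a protein of lipid droplets and the endoplasmic reticulum, had 2 circles of intron 3 with 3′ ends 1 base apart on the plus strand. Their sum was 1, 0 and 0 reads in the fetus and 12, 5 and 11 in the kid (adjusted p = 0.0179, edgeR's quasi-likelihood test), and the call was lost without fetus 2 or fetus 3. MARK3 rose by a log2 fold change of 0.92 ± 0.26 (adjusted p = 0.0212) and MICU3, a regulator of mitochondrial calcium uptake, by 1.28 ± 0.41 (adjusted p = 0.0362). ATXN10 fell, with -1.83 ± 0.53 (adjusted p = 0.0288), as did RIMS1, a scaffold of presynaptic active zones, with -2.28 ± 0.76 (adjusted p = 0.0456; all in edgeR's quasi-likelihood test on host sums). All 8 lost the call in at least 1 fit without a library, MICU3 in all 6.

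Whether the intronic circRNAs of a gene moved differently from its exonic circRNAs was tested within libraries for the 170 genes with at least 10 reads of each class. The difference was called for 2 genes, 1.18% of those tested. Both had intronic reads in 1 stage only and reached 10 of them through that stage alone. They were thus chosen by that stage, and their p-values are no separate support for a difference. Most of their intronic reads were interval-named, where a value listed at 0 may stand for 1 read. PPP1R12B had 0, 0 and 0 intronic reads against 11, 3 and 10 exonic reads in the fetus, and 47, 35 and 54 intronic against 0, 0 and 7 exonic reads in the kid (adjusted p = 3.81e-04, edgeR's quasi-likelihood test). The call was lost without fetus 2, fetus 3, kid 2 or kid 3, with adjusted p up to 0.273. MYO9A, an unconventional myosin, had 4, 7 and 8 intronic reads in the fetus and none in the kid, beside 90, 60 and 176 and then 143, 71 and 133 exonic reads (adjusted p = 0.0311, edgeR's quasi-likelihood test). All but 1 of its intronic reads came from spans of 16848 to 41057 bases that enclosed exonic circRNAs, and the call was lost in every fit without a library except that without fetus 1.

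The next 3 genes by p, UBAP2, NMD3 and MTFR1, were not called (adjusted p = 0.187, 0.187 and 0.203 in the same test). The exonic reads of NMD3 were 394 in the fetus and 744 in the kid, against 4 and 59 intronic reads. Of the 23 genes that hosted the 24 called circRNAs, 9 had no exonic read and 11 entered this test.

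With the intron-numbered circRNAs alone, 14 genes could be tested, and 2 were called, ATP2A1 and TTN. Both reached 10 intronic reads only through the kid libraries, ATP2A1 with no fetal read and TTN with 7. Their p-values are therefore no separate support for a difference. ATP2A1, beside its 20 intronic reads in the kid, had 29, 39 and 53 exonic reads in the fetus and 174, 152 and 153 in the kid (adjusted p = 0.0296, edgeR's quasi-likelihood test). For TTN the difference was 1.96 ± 0.66 (adjusted p = 0.0296), from 2, 1 and 4 intronic reads in the fetus and 22, 10 and 10 in the kid, beside 72, 48 and 115 exonic reads and then 166, 54 and 149. This restriction to 1 kind was chosen after the data had been seen. In the test of 170 genes neither was called, with an adjusted p of 0.305 for ATP2A1, from the same reads, and 0.745 for TTN (edgeR's quasi-likelihood test).

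TTN had the most intronic circRNAs of any gene, 30, of which 27 were intron-numbered. The 27 came from 25 different introns between intron 28 and intron 336, were 117 to 1335 bases long and had 49 reads together, 12 at most for 1 circle. NEB followed with 16, all intron-numbered, from 15 introns, with 23 reads in all and 4 at most. LOC108637754 and PDLIM7 had 11 each, and LOC102168946, RERE, RYR1 and SVIL had 9 each. TTN's summed intronic reads were 2, 13 and 4 in the fetus and 24, 18 and 12 in the kid, and the sum was not called (log2 fold change 1.07 ± 0.64, adjusted p = 0.272, edgeR's quasi-likelihood test).

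Of 63 sarcomere and contractile genes, 34 hosted 120 intronic circRNAs, 109 of them intron-numbered, with 151 reads in the fetus and 312 in the kid. The sums of 2 of the 34 could be tested: PDLIM7 fell and TTN was not called. PDLIM7, with 84 fetal and 29 kid reads over its 11 circles, had a log2 fold change of -1.94 ± 0.48 (adjusted p = 0.00932, edgeR's quasi-likelihood test), and the call was lost without fetus 3 or kid 3. Of 40 genes of calcium handling and excitation, 14 hosted 33 intronic circRNAs and 2 sums were tested; ATP2A1 rose, and CACNA2D1, a calcium channel subunit with 29 and 111 reads, was not called (1.58 ± 0.61, adjusted p = 0.0921, edgeR's quasi-likelihood test).

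Of 63 genes of splicing, debranching and RNA binding, 25 hosted 37 intronic circRNAs, and ADARB1, the 1 tested, rose. None was called among the 2 sums tested of the dystrophin complex and membrane list, the 2 of the myogenic and nuclear regulators and the 1 of the translation list. The hosts with the most reads in these lists were DMD, the dystrophin gene, with 6 fetal and 19 kid reads, HDAC4, a class IIa histone deacetylase, with 29 and 15, and RPL7A, a ribosomal protein gene, with 34 and 53. Their adjusted p was 0.387, 0.128 and 0.793 in edgeR's quasi-likelihood test on host sums. The reads of DMD and HDAC4 were all interval-named, and those of RPL7A all intron-numbered. In the lists of glycolysis and glycogen, oxidative metabolism, matrix and growth factor signalling no host sum passed the filter. The host with the most reads was PRKAA2, a catalytic subunit of AMP-activated kinase, in the first, with none and 7, and IGF1R, the IGF1 receptor, in the last, with 11 and 18. PRKAA2 and IGF1R hosted interval-named circRNAs only, as did ADARB1 and CACNA2D1. Over these 10 lists 10 sums were tested, 2 were higher and 1 lower in the kid, against 19% called among all host sums. The 2 higher ones, ATP2A1 and ADARB1, passed the filter only through the kid libraries, so their p-values are no separate support for a difference. In the matrix list the most reads were those of COL18A1, a basement membrane collagen, with 15 in the fetus and none in the kid. In the list of oxidative metabolism they were those of PDK4, which holds back pyruvate oxidation, with none in the fetus and 17 in the kid, 12 and 5 of them in kid 1 and kid 3. Neither passed the filter.

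In the authors' deposited table of the stage comparison, 91 of the 2596 intronic entries (3.51%) are marked significant, 69 higher and 22 lower in the kid. Among all 25500 circRNAs listed the share is close to this, with 831 (3.26%) marked, 486 higher and 345 lower. All 91 intronic entries have a p under 0.05 there, the adjusted value reaches 0.599 among them, and 25 of the 91 have an adjusted value under 0.05. Over all 25500 circRNAs 198 have an adjusted value under 0.05. Of the 24 circRNAs called here, 22 are marked in that table. Of the 91, 39 stand for a circRNA tested here and 52 do not. The 91 are entries as listed, so the 52 can hold entries added to a tested circRNA beside those below the filter on reads.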

How the data were processed

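The authors deposited whole-number back-splice read counts per circRNA for the 6 libraries, and read counts before and after trimming with the percent of reads kept. They also deposited SRPBM, a signal scaled per library, which entered no test. Their comparison table gives a log2 fold change, a p-value and a q-value per circRNA, deposited by the authors with no statement of the test. Per the labels' protocols, RNA was depleted of ribosomal RNA, digested with RNase R, copied into strand-marked libraries and sequenced in pairs of 150 bases. Cutadapt, FastQC and TopHat are named in the submitters' processing notes, with no circRNA caller or genome build given there. The 12 per-sample columns of the comparison table were not used.

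Entries with the same end and starts 1 base apart were added together. Counts of all circRNAs were fitted with edgeR 4.0.16 (R 4.3.3; TMM factors, robust quasi-likelihood test, at least 5 reads in 3 libraries), kid minus fetus, with Benjamini-Hochberg adjustment over the whole table and a threshold of 0.05. The same fit was made on reads summed per host gene and class. The difference between intronic and exonic change was fitted over 12 columns, 1 per library and class, with the library as a term. Shares and lengths were compared with exact permutation tests (scipy 1.17.1), and thinning was drawn 20 times per library. Alternatives were DESeq2 1.42.0, other scalings and filters, the deposited counts of the expression table, and leaving out libraries. The fits were also tried on simulated counts, with results not given here. All host names matched a RefSeq goat gene table, used for names only.

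Named by rule were the top 12 circRNAs by mean CPM, the called ones (at most the 12 of smallest p in each direction), the 5 hosts with the most intronic circRNAs, the 5 with the smallest p for the ratio, and in each gene list the host with the most reads. The other 7 circRNAs higher in the kid, spans or circles beside a named one and hosts called only as sums were named after their values had been seen. The members, lists and these rules were chosen with earlier results of these data known. One called circRNA, interval-named and lower in the kid, is counted but not reported here. Reads carry no molecular identifiers, so intervals cover counting error only. Same-numbered libraries did not deviate together (correlations -0.0361 to 0.0343), so replicate numbers were not used as pairs.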

Additional observations from a re-analysis of the deposited data

How the results depend on the processing

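The 24 calls of intronic circRNAs became 22 to 30 under the other scalings, filters and count tables and 22 with DESeq2, and 4 with fetus 3 as the only fetus library. Without any 1 library they were 10 to 22, with 10 without kid 1 or kid 2, 12 without kid 3 and 15 without fetus 1. The 29 calls of host sums became 23 to 39, 9 with fetus 3 alone, 9 with intron-numbered circRNAs only, and 11 to 27 without a library. The 2 genes with unequal intronic and exonic change became 1 at 20 or more reads of each class and 0 to 2 without a library. With a replicate block the calls were 18 and 26. The kid minus fetus difference in intronic share of back-splice reads, 3.79 percentage points, was 3.49 to 4.02 without a library and 1.74 without HCFC1R1. The length difference was 0 within the intron-numbered kind. Of 963 values of named circRNAs and genes under alternatives, 816 kept their direction and side of the threshold, 142 lost the call and 5, all of values not called, moved across 0. Fewer libraries also leave fewer circRNAs past the filter; beyond that the cause was not tested.

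Depth limits most of the class: 120 of 2542 intronic circRNAs passed the filter, and 977 rest on a single read.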
